A study of Homo sapiens with 6 samples.

Results

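The genes described here were named as hosts of small nucleolar RNAs (snoRNAs), and most are long noncoding RNAs (lncRNAs) with snoRNAs in their introns. Members were chosen by name alone. They were all features whose symbol was SNHG followed by a number, together with GAS5, ZFAS1 and DANCR, and they came to 31 of the 61496 features in the table. GENCODE 29 lists SNHG32 as protein coding, and no snoRNA was annotated inside SNHG27. The cells were U251, an established human glioma line, in 3 control libraries without treatment and 3 libraries after 2 h of exposure to sevoflurane (Sev), an inhaled anesthetic. The labels list several concentrations of Sev, the highest being 5.1%, without assigning them to libraries, and the legend of the volcano plot in the study names 5.1% for the sequenced cells. The methods mention independent experiments for quantitative data in general, but no source says that the 3 libraries of a group were separate cultures, so the p-values measure the spread between these libraries. Ribosomal RNA was depleted before strand-specific sequencing, and the authors deposited counts and FPKM values, which scale each count to the length of the gene model and to library size.

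A snoRNA host gene is transcribed and spliced, the introns are trimmed to the mature snoRNAs, and the spliced exons are left over as the lncRNA. Box C/D snoRNAs guide methylation of ribosomal RNA and box H/ACA snoRNAs guide pseudouridylation, each in complex with its own set of proteins. Many hosts start with a run of pyrimidines, the signal of 5′ terminal oligopyrimidine (TOP) RNAs whose translation is braked when mTOR is inactive, and many of the spliced lncRNAs are removed by nonsense-mediated decay (NMD). Several hosts, among them SNHG16, DANCR and GAS5, are widely studied in cancer cells.

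After Sev, snoRNA host lncRNAs were called in both directions. Of the 31 members, 29 passed the filter on low counts, and 7 of them were called at an adjusted p under 0.05 (edgeR's quasi-likelihood test, Benjamini-Hochberg adjustment over all 27514 tested features). SNHG15, SNHG16, SNHG17, SNHG26 and DANCR were higher, between 1.98-fold and 2.97-fold, and SNHG3 and SNHG14 were lower. The 7 called members were 24.1% of those tested, against 43.7% of all tested features. The 5 higher members were 17.2% against a background of 22.1%, and the 2 lower members were 6.90% against 21.5%. With library size alone 4 members were higher and 6 lower. The 3 limma fits on log2 FPKM tested 25, 25 and 31 members and called 3 higher and 5 to 7 lower. The share of all features called in those 3 fits is not given here. The median log2 fold change was 0.11 over the 29 members and −0.0056 over all tested features.

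Scaling by library size alone, without the trimmed mean of M-values (TMM), moved the median of all tested features to −0.15. Over all features the calls were then 4665 higher and 7502 lower, against 6094 and 5920 with TMM. Over the members they were 4 higher and 6 lower, with a median of −0.035. GAS5, SNHG8, SNHG31 and SNHG32 were added as lower, and DANCR was lost.

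The libraries held 38624292 to 46318311 counts. Of the 8 glial and glioma markers, 7 were above 1 CPM (counts scaled to library size after TMM) in every library. The summed level of the markers was 7676 to 8573 CPM in control and 8734 to 9202 CPM in Sev. VIM made up most of the sum, and single markers went both ways. SOX2 was at 280.3 to 294 CPM in control and 164 to 184 CPM in Sev, S100B at 18.3 to 28.5 and 10.1 to 10.6 CPM, and OLIG2 at 2.27 to 2.52 and 0.451 to 0.757 CPM, while CD44 was at 364 to 402 and 711 to 788 CPM. The 3 immune markers summed to 1.31 to 1.65 CPM in control and 3.96 to 5.92 CPM in Sev, with CD3E at 0 throughout and CD14 making up most of the sum. The 3 epithelial markers summed to 0.0796 to 0.293 CPM, the 3 endothelial markers to 7.12 to 10.4 CPM, and the 3 neuronal markers to 16.3 to 18.2 CPM in control and 22.6 to 24.9 CPM in Sev. The part of other cell types in the results was not tested. In bulk libraries, fewer cells of a type and less RNA per cell cannot be told apart.

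A few libraries stood apart at single hosts. Sev_1 was far above Sev_2 and Sev_3 for DANCR and SNHG16, control_1 was far below the other controls for SNHG4, and control_3 was far above the other controls for SNHG20. Results that rest on them are given with and without these libraries.

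The start of a host is shown first, because the run of pyrimidines that marks TOP RNAs lies there. RefSeq (GRCh38.p14) promoter windows were found for 27 of the 31 members. The windows below run from 30 bases before the annotated start to 50 bases from it, 5′ to 3′ on the strand of the gene, with the run of pyrimidines at the start in capitals, or the first base alone where it is a purine. The first 4 hosts start with C and 4 pyrimidines, and the last 5 are hosts called higher or lower.
SNHG12, chr1:28581824-28581903, minus strand: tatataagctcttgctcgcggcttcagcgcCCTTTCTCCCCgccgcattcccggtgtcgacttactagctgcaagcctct
SNHG5, chr6:85678684-85678763, minus strand: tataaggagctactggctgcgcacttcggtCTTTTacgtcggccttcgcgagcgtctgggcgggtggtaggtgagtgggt
ZFAS1, chr20:49278612-49278691, plus strand: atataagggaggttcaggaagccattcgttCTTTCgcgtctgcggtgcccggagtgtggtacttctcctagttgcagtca
SNHG4, chr5:139274071-139274150, plus strand: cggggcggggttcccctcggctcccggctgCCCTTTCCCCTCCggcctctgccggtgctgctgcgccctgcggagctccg
SNHG16, chr17:76557734-76557813, plus strand: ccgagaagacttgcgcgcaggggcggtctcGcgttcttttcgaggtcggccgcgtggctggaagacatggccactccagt
SNHG17, chr20:38435279-38435358, minus strand: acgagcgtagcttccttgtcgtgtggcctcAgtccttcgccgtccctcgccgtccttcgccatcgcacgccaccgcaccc
SNHG26, chr7:22854210-22854289, plus strand: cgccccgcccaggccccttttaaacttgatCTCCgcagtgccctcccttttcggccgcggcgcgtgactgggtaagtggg
DANCR, chr4:52712364-52712443, plus strand: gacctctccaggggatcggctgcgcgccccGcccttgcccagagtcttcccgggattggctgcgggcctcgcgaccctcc
SNHG3, chr1:28505913-28505992, plus strand: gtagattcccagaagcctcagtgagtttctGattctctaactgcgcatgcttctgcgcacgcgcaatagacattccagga

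A C at the first base followed by 4 letters that were each C or T was found at the start of 7 of the 27 members with a window (25.9%), against 4.07% of the 35116 windows of all genes. The 7 were SNHG4, SNHG5, SNHG12, SNHG18, SNHG19, SNHG32 and ZFAS1. None of these 7 was called in this fit, against 43.7% of all tested features. SNHG4 was called without control_1, with DESeq2's Wald test and with the replicate block, and SNHG32 in 5 of 15 alternatives. Their median log2 fold change was 0.047, with a range of −0.23 to 0.89. The other 18 tested members with a window had a median of 0.11 and included 4 of the higher and both of the lower calls, while SNHG15 had no window. The difference between these groups was not tested. The RefSeq start may lie away from the start used by the cells, so the letters describe the annotation. In some members it also differed from the GENCODE start of the counted gene (negative is upstream). Among the 7, it lay at 1259 bases in SNHG12, 464 in ZFAS1, 308 in SNHG32, 15 in SNHG5 and −1 in SNHG4. It lay at 0 in SNHG18 and SNHG19. Of the other tested members, it lay at −154975 bases in SNHG14, 1927 in SNHG20 and −163 in GAS5. It lay at 0 in SNHG7, SNHG10, SNHG21, SNHG22 and SNHG31. Grouping by the GENCODE start was not tested. SNHG26, with a run of 4 pyrimidines, missed the pattern by 1 base.

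Of the other motifs searched on both strands of the 300-base windows, CACGTG, the E-box, was found in the windows of 2 members, SNHG7 and SNHG30 (7.41%), against 7.26% of all windows. TGACGTCA, the cAMP response element, and TGATGNAA, the composite element of C/EBP and ATF factors, were found in 0 of the 27 members. They were in 1.85% and 3.62% of all windows.

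The plot of levels shows how far the hosts differed in abundance. FPKM compares genes per length, and by the mean FPKM over the control libraries 4 members were over 10, 17 were between 1 and 10, and 10 were under 1. SNHG3, the host of the U17 snoRNAs, was at 19.4, 19.8 and 21.0 FPKM in control and at 11.3, 11.3 and 11.8 FPKM in Sev. SNHG32 was at 17.2, 19.0 and 21.4 FPKM in control and at 15.2, 14.1 and 15.2 FPKM in Sev. The ranges of SNHG3 and SNHG32 overlapped in control, so their order was within the spread. SNHG29 was at 17.4, 17.5 and 17.2 FPKM in control and at 17.0, 16.9 and 16.9 FPKM in Sev. SNHG16 followed with 12.4, 14.8 and 14.8 FPKM in control and 33.9, 19.9 and 21.4 FPKM in Sev. SNHG6 was at 8.73, 8.81 and 7.39 FPKM in control and at 12.04, 10.6 and 7.17 FPKM in Sev. SNHG16 was below SNHG3 and SNHG32 in every control library and above both in every Sev library. In all, 22 of the 30 neighbouring pairs in the order had overlapping control ranges.

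**Figure D1:**
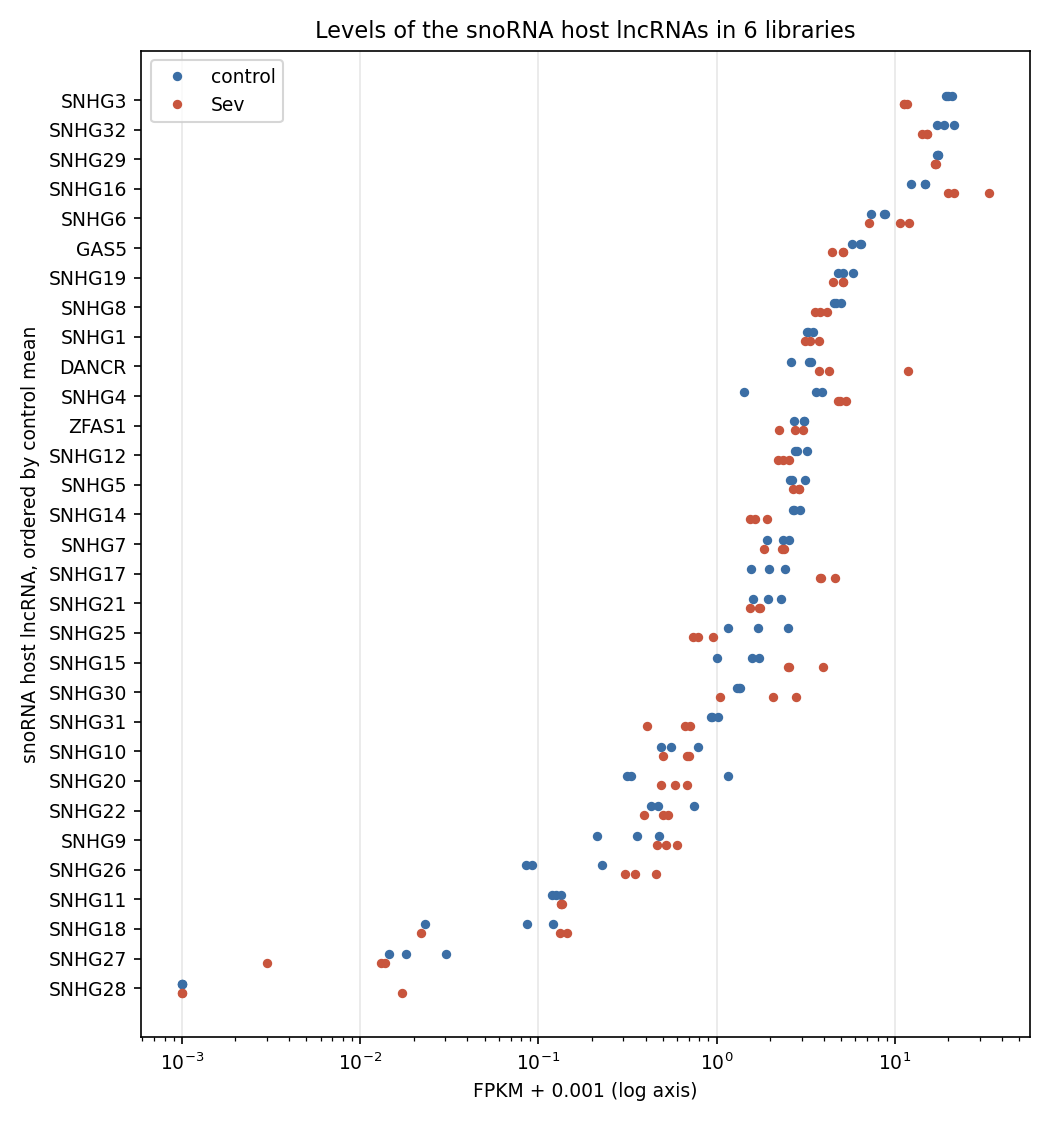
FPKM of the 31 snoRNA host lncRNAs (log axis, 0.001 added so that a value of 0 can be drawn) in the 3 control and 3 Sev libraries, 1 point per library, ordered by the control mean. SNHG3 at 19.4 to 21.0 FPKM and SNHG32 at 17.2 to 21.4 FPKM overlap in control, the place of SNHG29 depends on its gene model, and SNHG27 and SNHG28 lie near 0.

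Levels per length depend on the gene model. The length implied by the deposited FPKM was first divided by 1.24, its median ratio to the merged exons of GENCODE 29 over 14658 abundant features. After this scaling it matched the merged exons within 5% for 87.8% of these features. In 10 members it was over 1.5 times that length. SNHG8, for example, had a scaled implied length of 6623 bases against 923 bases of merged exons, and SNHG14 had 122739 against 43324. SNHG29 had 7169 against 3759, so its place beside SNHG3, SNHG32 and SNHG16 depends on the model. In 9 members the merged exons covered over 70% of the gene span, with 95.6% in SNHG1 and 100% in SNHG9, where they form 1 block. Spliced and unspliced RNA cannot be told apart in these members.

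SNHG14 took the most counts. It is a very long transcript of the SNRPN region on chromosome 15 (GRCh38, chr15:24978583-25419462, plus strand) that carries the SNORD115 and SNORD116 clusters and runs antisense to UBE3A. It made up 37.2% to 41.1% of the counts of all members in control and 23.5% to 30.1% in Sev. All members together took 0.0946% to 0.111% of the counts of a library.

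The higher members are given by CPM after TMM scaling. SNHG16 lies on chromosome 17 (chr17:76557766-76565348, plus strand) and carries the box C/D snoRNAs SNORD1A, SNORD1B and SNORD1C. Its level was 76.5, 95.1 and 93.9 CPM in the controls and 236, 144 and 144 CPM in the Sev libraries. Every Sev library was above every control library, with Sev_1 the highest. The log2 fold change was 0.98 ± 0.20 (SE, n = 3 per group), with an adjusted p of 0.00602 by edgeR. Without Sev_1 it was 0.70, and SNHG16 was called in all 6 fits that left out a library. ENSG00000284526, a protein-coding gene on the opposite strand, shares 1639 exon bases with SNHG16. It was also called higher, with a log2 fold change of 0.56 and an edgeR adjusted p of 0.0473. How reads in the shared bases were assigned is not stated.

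SNHG17 (chr20:38420588-38435353, minus strand) carries box H/ACA snoRNAs of the SNORA71 family. It was at 21.8, 28.5 and 34.5 CPM in control and at 72.0, 61.2 and 58.3 CPM in Sev. The groups were well apart, with the lowest Sev library above the highest control. SNHG17 had a log2 fold change of 1.17 ± 0.17 (SE) with an edgeR adjusted p of 0.0014.

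SNHG15 (chr7:44983023-44986961, minus strand) carries SNORA9. It was at 7.99, 7.57 and 4.80 CPM in control and at 13.1, 13.5 and 19.8 CPM in Sev. The groups did not overlap, and Sev_3 was the highest. SNHG15 had a log2 fold change of 1.19 ± 0.24 (SE) with an edgeR adjusted p of 0.00573.

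SNHG26 (chr7:22854178-22861579, plus strand), which carries SNORD93, was the scarcest of the called members. It was at 1.58, 0.707 and 0.639 CPM in control and at 2.36, 3.70 and 2.65 CPM in Sev. Control_1 was the highest control, but still below every Sev library. SNHG26 had a log2 fold change of 1.57 ± 0.37 (SE), from 28 to 139 counts a library, with an edgeR adjusted p of 0.0115.

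DANCR (chr4:52712404-52720351, plus strand), the host of SNORA26, is known for holding back the differentiation of progenitor cells. It was at 7.07, 9.49 and 9.17 CPM in control and at 35.8, 11.8 and 12.5 CPM in Sev. The groups did not overlap, but Sev_1 was far above the other Sev libraries. The log2 fold change was 1.22 ± 0.42 (SE) with an edgeR adjusted p of 0.0452, the value nearest the limit among the called members. Without Sev_1 the log2 fold change fell to 0.50 with an adjusted p of 0.0704, and the call was lost in 11 of 15 alternatives.

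SNHG4 lay just outside the limit. It carries SNORA74A and SNORA74D, and it was at 7.38, 19.4 and 20.6 CPM in control and at 28.5, 32.1 and 27.1 CPM in Sev. Control_1 was far below the other controls, and the groups did not overlap. The log2 fold change was 0.89 ± 0.33 (SE) with an edgeR adjusted p of 0.0625, and without control_1 SNHG4 was called at 0.54 with an adjusted p of 0.0162. MATR3, a nuclear matrix protein gene chosen after its values were seen, shares 626 exon bases with SNHG4 on the same strand, and its levels of 21.3, 97.0 and 111 CPM in control were also lowest in control_1. In Sev MATR3 was at 146, 139 and 143 CPM.

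**Figure D2:**
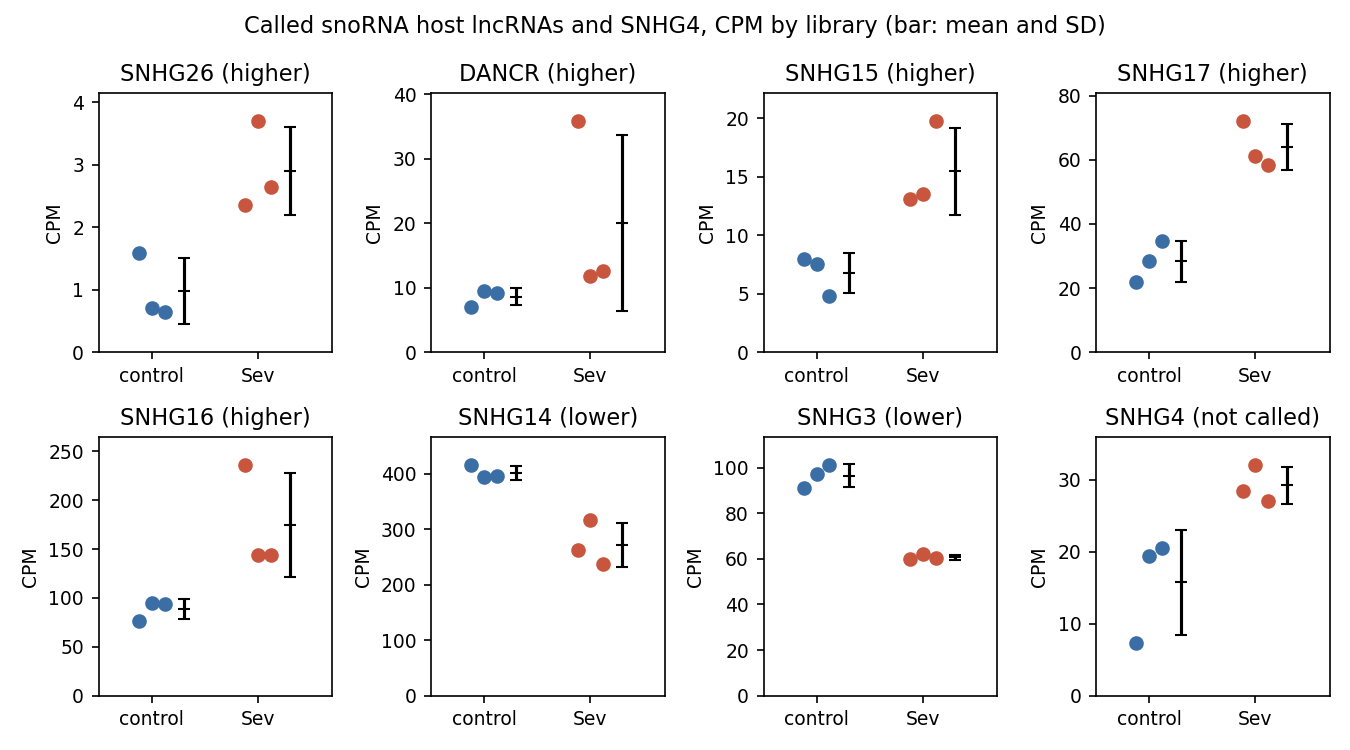
CPM after TMM scaling in each library for the 7 called snoRNA host lncRNAs and SNHG4, with 1 point per library and the mean and SD beside each group, on axes that start at 0. DANCR in Sev_1 stands at 35.8 CPM against 11.8 and 12.5 CPM in the other Sev libraries, and SNHG3 is at 59.9 to 62.0 CPM in all Sev libraries.

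Of the lower members, SNHG3 (chr1:28505980-28510892, plus strand) carries SNORA73A and SNORA73B. It was at 91.2, 97.0 and 101 CPM in control and at 59.9, 62.0 and 60.5 CPM in Sev. The Sev libraries agreed closely with each other and all lay below the controls. The log2 fold change was −0.67 ± 0.077 (SE) with an edgeR adjusted p of 0.000546, the smallest among the members. SNHG3 shares 242 exon bases on the same strand with RCC1, a guanine nucleotide exchange factor of Ran, which was at 41.5, 51.4 and 50.6 CPM in control and at 48.4, 80.9 and 62.5 CPM in Sev and was not called.

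SNHG14 was at 416, 394 and 395 CPM in control and at 262, 316 and 238 CPM in Sev. All Sev libraries were below all controls. The log2 fold change was −0.56 ± 0.11 (SE) with an edgeR adjusted p of 0.00501. Several other transcripts share its exons on the same strand, so its counts depend on how reads in shared exons were assigned.

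By the threshold of the study's methods, which asks for a log2 fold change of more than 1 in size and for an unadjusted p below 0.05, 4 members were higher, against 11.4% of all tested features. They were SNHG15, SNHG17, SNHG26 and DANCR, 13.8% of the members tested. The fits on FPKM with their pseudocounts put 0 to 2 members past it, and leaving out 1 library gave 3 to 6, with 3 without control_1 and 3 without Sev_1. No member was lower by that threshold, against 12% of all tested features, although SNHG3 and SNHG14 were among the 10 members with an unadjusted p under 0.05. Groups did not overlap in 10 higher members, against 28.3% of all tested features, and in 6 lower members, against 28.2%. Of these 16 members, 9 were not called.

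The 22 tested members without a call include GAS5, ZFAS1 and SNHG1. GAS5, named for its rise in growth-arrested cells, was at 36.1, 33.7 and 36.4 CPM in control and at 32.1, 29.1 and 31.1 CPM in Sev. The groups did not overlap, and the log2 fold change was −0.20 with a 95% interval of −0.40 to 0.0038 and an edgeR adjusted p of 0.102. GAS5 was called lower with library size alone and in all 3 fits on FPKM. ZFAS1 had a log2 fold change of −0.0067 with an interval of −0.28 to 0.27. SNHG1, the host of several box C/D snoRNAs from SNORD22 to SNORD31, had 0.19 with an interval of −0.058 to 0.44. The interval lay within 0.5 of 0 on the log2 scale in 10 members, namely GAS5, SNHG1, SNHG5, SNHG7, SNHG8, SNHG12, SNHG19, SNHG29, SNHG32 and ZFAS1. For these 10, a change beyond that size lay outside the interval.

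Among the abundant hosts without a call, SNHG29 was at 144, 151 and 146 CPM in control and at 159, 163 and 153 CPM in Sev, a log2 fold change of 0.11 that was negative with library size alone and on the FPKM scale. SNHG32 was at 35.5, 41.0 and 45.5 CPM in control and at 35.6, 34.3 and 34.4 CPM in Sev, with overlapping groups. It was called lower in 5 of 15 alternatives, library size alone, the 3 fits on FPKM and the fit without control_1. SNHG6 was at 12.5, 13.15 and 10.9 CPM in control and at 19.5, 17.8 and 11.2 CPM in Sev. Sev_3 stood near the controls for SNHG6, and without it SNHG6 was called higher with a log2 fold change of 0.62.

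Other hosts were variable between libraries, scarce or called in some fits alone. SNHG20 was at 2.27, 2.47 and 8.36 CPM in control, so its interval ran from −1.004 to 1.22, and without control_3 it was called higher at 0.99 with an edgeR adjusted p of 0.0179. SNHG18 had an interval of −1.08 to 2.08 from 3 to 16 counts a library. SNHG25 had −0.92 and SNHG31 had −0.54, with edgeR adjusted p of 0.0877 and 0.0768. Both were called lower in 2 of the 3 fits on FPKM, and SNHG31 also with library size alone. SNHG9, SNHG10, SNHG11, SNHG21, SNHG22 and SNHG30 had log2 fold changes between −0.067 and 0.68 and were not called. SNHG30 was called without Sev_2, and SNHG25 was called without control_1. SNHG27 had 1 to 6 counts a library and SNHG28 had at most 2, and neither was tested.

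**Figure D3:**
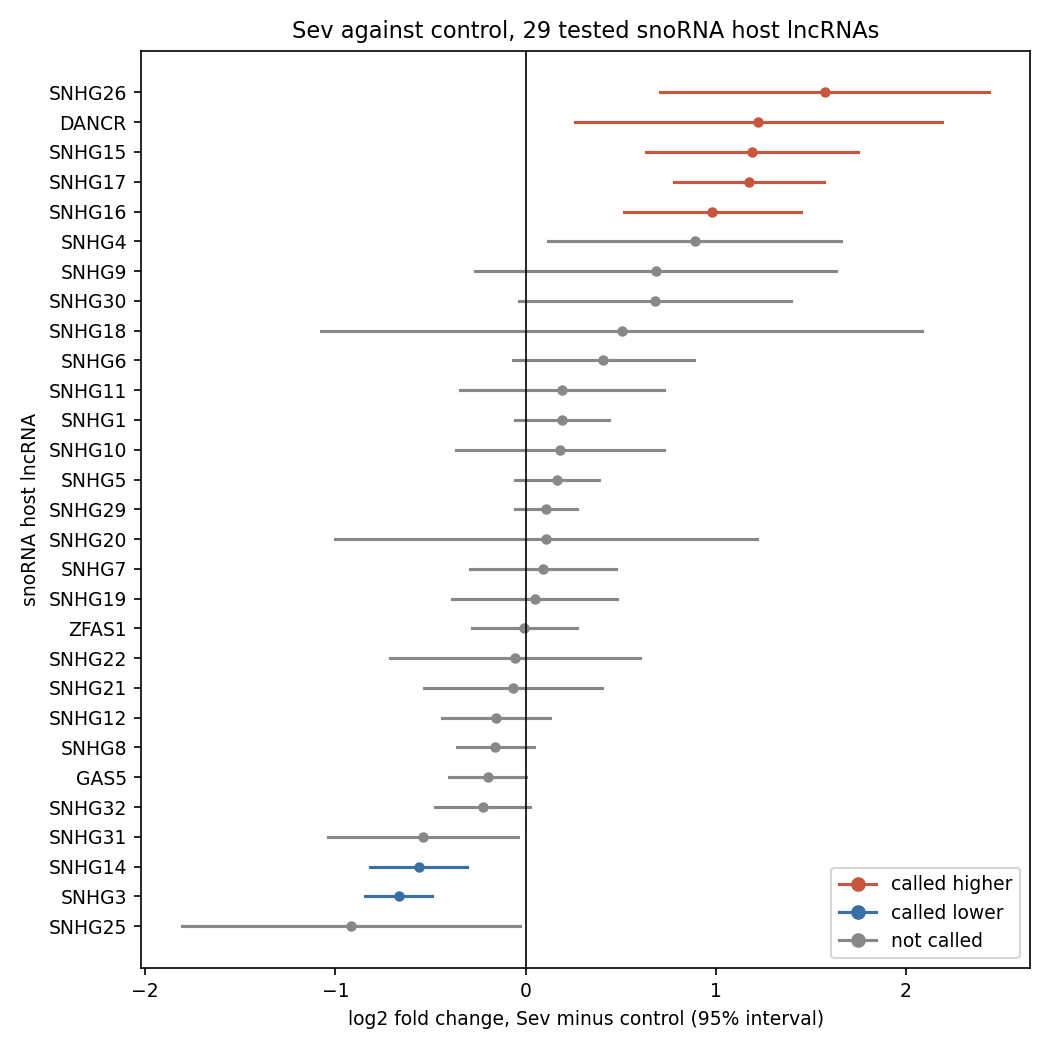
Log2 fold change (Sev minus control) with its 95% interval for the 29 tested snoRNA host lncRNAs, coloured by call. SNHG26 is the highest at 1.57, SNHG25 the lowest at −0.92 without a call, and 10 members have an interval within 0.5 of 0.

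The snoRNAs inside the hosts were a second readout of the same loci. GENCODE 29 places 143 snoRNA features inside members on the same strand, 84 of them in SNHG14. Only 28 in 18 hosts passed the filter, and 82 had at most 1 count in every library. No snoRNA feature of that annotation lay inside GAS5, where RefSeq places 11, so those of GAS5 were not analysed here. In 8 snoRNAs a library with 20 or more counts stood beside a library with 0 or 1, as in SNORD22 with 74, 1 and 1 counts in control, so the deposited values for snoRNAs can be all or none. Reads from a mature snoRNA and from the unspliced host cannot be told apart in these values.

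Of the 28 tested snoRNAs, 5 were higher and 2 lower, which is 25% against 43.7% of all features. With library size alone 3 were higher and 3 lower, and the fits on FPKM called 5 to 8 higher and 6 to 9 lower. The share of all features called in the fits on FPKM is not given here. All 5 higher ones have names of the box H/ACA or Cajal body classes, with 3 of the 12 SNORA and 2 of the 3 SCARNA features tested. Of the 11 SNORD features tested, 0 were higher and 1 was lower. With so few tested features a difference between classes was not tested. The features also differ in length. SNORA73A, SNORA73B, SCARNA16 and SCARNA13, all called higher, are 206, 204, 187 and 275 bases long. SNORD12C and SNORD104, tested but not called, are 89 and 70 bases long. The part of length in the calls was not tested.

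The pair inside SNHG3 moved against their host. SNORA73A and SNORA73B, both forms of U17, are unusual among box H/ACA snoRNAs because they act in cleavage of the ribosomal RNA precursor. Their sequences, with the ACA box in capitals, (GENCODE 29 on GRCh38) are shown because the copies are nearly alike.
SNORA73A, chr1:28507366-28507571, plus strand: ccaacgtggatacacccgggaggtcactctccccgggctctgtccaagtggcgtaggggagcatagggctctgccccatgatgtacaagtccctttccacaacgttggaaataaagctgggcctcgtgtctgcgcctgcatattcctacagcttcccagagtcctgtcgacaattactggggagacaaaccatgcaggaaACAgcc
SNORA73B, chr1:28508559-28508762, plus strand: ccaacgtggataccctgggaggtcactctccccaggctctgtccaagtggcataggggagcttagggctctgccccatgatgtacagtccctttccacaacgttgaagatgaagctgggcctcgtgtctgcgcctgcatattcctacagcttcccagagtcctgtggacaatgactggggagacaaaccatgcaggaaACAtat

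In a global alignment the 2 sequences were identical in 192 of 206 columns (93.2%), so how reads were divided between them is uncertain. SNORA73A was at 80.9, 96.8 and 90.2 CPM in control and at 164, 145 and 135 CPM in Sev. Its log2 fold change was 0.73 with an edgeR adjusted p of 0.00127. SNORA73B was at 90.4, 91.8 and 96.7 CPM in control and at 158, 137 and 125 CPM in Sev. Its log2 fold change was 0.59 with an edgeR adjusted p of 0.00271. For both snoRNAs every Sev library was above every control, whereas SNHG3 was below in every Sev library. SNORA73A lies in an exon of the merged SNHG3 model and SNORA73B does not. Both calls held in all 15 alternatives.

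The other called snoRNAs came from hosts that were not called. SCARNA16, inside SNHG20, and SCARNA13, inside SNHG10, belong to the Cajal body RNAs, which guide modification of spliceosomal RNAs. Their sequences are shown with the ACA box in capitals.
SCARNA16, chr17:77089307-77089493, plus strand: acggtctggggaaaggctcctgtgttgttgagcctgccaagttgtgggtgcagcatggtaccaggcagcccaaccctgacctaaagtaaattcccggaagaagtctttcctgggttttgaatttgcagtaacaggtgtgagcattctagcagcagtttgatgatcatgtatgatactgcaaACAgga
SCARNA13, chr14:95533355-95533629, minus strand: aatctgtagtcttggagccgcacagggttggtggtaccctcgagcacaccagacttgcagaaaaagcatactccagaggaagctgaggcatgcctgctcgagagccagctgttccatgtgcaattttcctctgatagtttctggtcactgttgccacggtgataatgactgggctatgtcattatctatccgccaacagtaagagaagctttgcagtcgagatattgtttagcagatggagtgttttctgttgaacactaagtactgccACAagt

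SCARNA16 was at 2.36, 3.18 and 2.95 CPM in control and at 5.87, 4.445 and 4.57 CPM in Sev, a log2 fold change of 0.81 with an edgeR adjusted p of 0.0114. Its host SNHG20 had 0.11, and 0.99 without control_3. SCARNA13 was at 21.0, 19.4 and 17.1 CPM in control and at 26.6, 25.7 and 25.7 CPM in Sev, a log2 fold change of 0.44 with an edgeR adjusted p of 0.0127. Every Sev library was above every control for both, and the call of SCARNA13 was lost in 5 of 15 alternatives. SNORA74A, the U19 snoRNA inside SNHG4, was at 4.63, 4.54 and 2.93 CPM in control and at 7.83, 6.97 and 4.97 CPM in Sev. Its log2 fold change was 0.71 with an edgeR adjusted p of 0.0456, and 10 of 15 alternatives lost the call. The low control_1 of SNHG4 was not seen in SNORA74A. SNORA74D, the other snoRNA inside SNHG4, was lowest in control_1, at 0.686, 1.11 and 1.22 CPM in control and 1.49, 1.54 and 1.51 CPM in Sev, and was not called at a log2 fold change of 0.59.

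SNORD87, the box C/D snoRNA of SNHG6, was at 0.875, 1.06 and 0.824 CPM in control and at 0.398, 0.266 and 0.530 CPM in Sev. Its log2 fold change was −1.20 with an edgeR adjusted p of 0.0192, while SNHG6 had 0.41. SNORA70I, inside SNHG31, was at 0.355, 0.379 and 0.330 CPM in control and at 0.133, 0.0798 and 0 CPM in Sev, an edgeR log2 fold change of −2.29 with an adjusted p of 0.028. Both rested on few counts. The call of SNORD87 was lost in 3 of 15 alternatives and that of SNORA70I in 7 of 14. In 9 of the 28 tested snoRNAs the sign of the log2 fold change was opposite to that of the host.

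Inside the hosts called higher, the tested snoRNAs had no call, and no snoRNA of SNHG15 or SNHG26 was tested. SNORD1B in SNHG16 had a log2 fold change of 0.57, SNORA26 in DANCR had −0.036, and 3 snoRNAs of SNHG17 were tested. SNORA71B, at 71, 74 and 72 counts in control and 88, 62 and 72 in Sev, had 0.21. SNORA71D had 1.30 with an interval of −1.41 to 4.001, and SNORA71A had 2.15 with an interval of 0.064 to 4.24. SNORA71A had 1, 2 and 49 counts in control and 67, 75 and 51 in Sev, so its level in control is uncertain. Inside SNHG14 only 4 of 84 snoRNAs were tested, all of the SNORD116 cluster, with log2 fold changes between −0.84 and 0.49 and 0 calls by edgeR, none with an unadjusted p under 0.05.

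**Figure D4:**
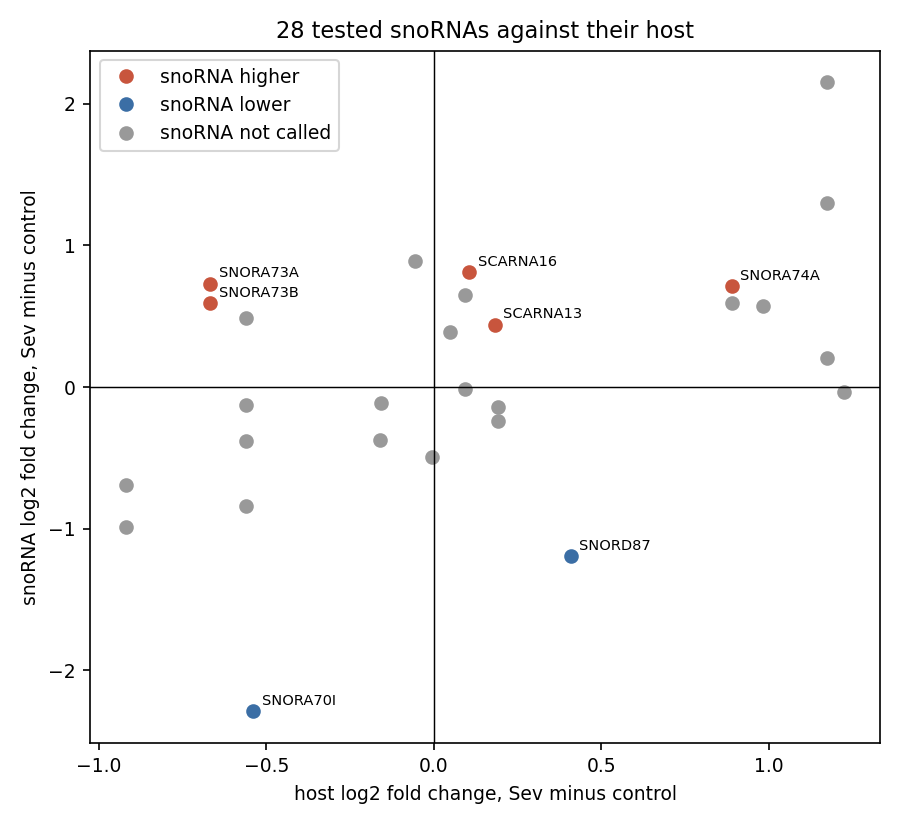
Log2 fold change (Sev minus control) of the 28 tested snoRNAs (y axis) against that of the host (x axis), 1 point per snoRNA, coloured by the call of the snoRNA. SNORA73A and SNORA73B lie above 0 with a host at −0.67, and SNORD87 lies at −1.20 with a host at 0.41.

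Some hosts share a promoter region with a neighbour that starts on the other strand within 1000 bases. Of the 8 protein-coding neighbours, all tested, 1 was higher and 2 were lower, against 22.1% and 21.5% of all tested features. SLC3A2, the heavy chain of amino acid transporters, starts 188 bases from SNHG1 and was at 70.3, 81.9 and 102 CPM in control and at 184, 177 and 189 CPM in Sev. All Sev libraries were above all controls, and its log2 fold change was 1.11 with an edgeR adjusted p of 0.000609, beside 0.19 for SNHG1. ZBTB37, a zinc finger gene next to GAS5, was at 70.5, 61.7 and 65.6 CPM in control and at 29.97, 22.0 and 36.4 CPM in Sev, a log2 fold change of −1.16 with an edgeR adjusted p of 0.00152, beside −0.20 for GAS5. ZNFX1, next to ZFAS1, had −0.36 with an edgeR adjusted p of 0.00716, beside −0.0067 for ZFAS1. TRAF7, RPS2, SEMA5A, BARD1 and ACAA2 were not called. The difference between a host and its neighbour was not tested.

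Other genes of host and snoRNA biology were read from 5 lists, 4 of proteins that act on these RNAs and 1 of protein-coding genes that are hosts themselves. All of their genes were tested, and none passed the study's threshold in either direction. Over all tested features 22.1% were called higher and 21.5% lower, with a median log2 fold change of −0.0056. Among the 24 NMD factors, 10 were higher and 5 lower, with a median log2 fold change of 0.037 that was −0.11 with library size alone, where 6 were higher and 7 lower. ETF1, the release factor, rose by 0.85, SMG5 by 0.66 and RNPS1 by 0.68, with edgeR adjusted p of 0.000328 for ETF1. PNRC2, a decapping cofactor, had −0.68, UPF2 had −0.42 and XRN1, the 5′ exonuclease, had −0.36, all called lower.

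Of the 8 box H/ACA snoRNP proteins, 6 were higher and 0 lower, with a median of 0.54 (0.40 with library size alone, where 4 were higher). DKC1, the pseudouridine synthase of the complex, was at 52.3 ± 8.30 CPM in control and 102.5 ± 8.71 CPM in Sev (mean ± SD, n = 3), a log2 fold change of 0.97 with an edgeR adjusted p of 0.000954. NHP2 had 0.73 and NOLC1 had 0.78. SHQ1 and WRAP53 were not called. Of the 11 box C/D snoRNP proteins, 2 were higher and 1 lower, with a median of 0.25 (0.12 with library size alone, where 2 were higher and 2 lower). FBL, the methyltransferase, had 0.51 and NUFIP1, an assembly factor, had 0.64, while RPAP3 had −0.29.

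Of the 12 genes that bind TOP RNAs or control their translation in either direction, 5 were higher and 3 lower, with a median of 0.073 that was −0.067 with library size alone. EIF4E had 0.53, RPTOR 0.48 and LARP1B 0.58, and TIA1 had −0.65, LARP4 −0.29 and LARP1 −0.26. LARP1 is the protein that binds the TOP sequence. Of the 34 protein-coding genes that also carry snoRNAs, 23 were higher and 1 lower, with a median of 0.34 (0.20 with library size alone, where 11 were higher and 2 lower). Most of the 34 encode ribosomal proteins, and a part of snoRNA hosting in their changes was not tested. DKC1, HSPA9 at 0.74 and RPS20 at 0.50 had the smallest p among the higher ones, and EIF4A2, a translation initiation helicase, had −0.66. A gene on 2 lists counted in each, and once in the total. The lists together held 45 higher and 10 lower genes, and with library size alone 27 were higher and 15 lower. Without control_3 they were 26 and 6, without Sev_1 30 and 6, and the fits on FPKM called 22 to 25 higher. The share of all features called in these fits is not given here.

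**Figure D5:**
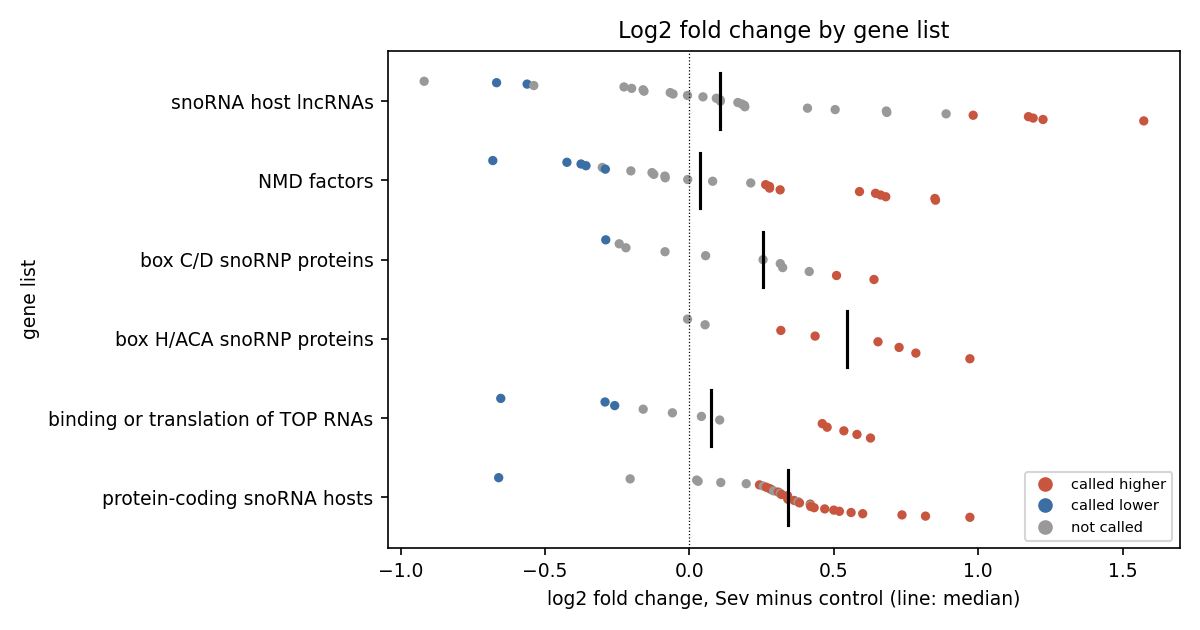
Log2 fold change (Sev minus control) of each tested gene, 1 point per gene coloured by call, for the snoRNA host lncRNAs and the 5 gene lists, with the median as a line. The medians are 0.11 for the host lncRNAs, 0.54 for the box H/ACA snoRNP proteins and 0.34 for the protein-coding hosts, most of which encode ribosomal proteins.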

How the data were processed

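RNA of 3 control and 3 Sev libraries of U251 cells was sequenced after depletion of ribosomal RNA. The authors deposited counts per gene, described here as estimated counts, and FPKM values for the same 61496 features. A listed count of 1 went with 4.66e-05 to 0.994 counts by FPKM (median 0.43, n = 22 listed values), so the deposited counts are estimates rounded up, and the test treats them as counts. FPKM per count was constant within 0.791% over 3486 abundant features, so both tables hold 1 estimate. The submitters' processing notes name bcl2fastq 2.19, featureCounts and the build hg18, with no role. The aligner and its version are not given in the sources used here. The identifiers follow later Ensembl releases, so positions were joined by identifier from GENCODE 29 on GRCh38. RefSeq tables gave the promoter windows.

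The counts were tested with edgeR 4.0.16 in R 4.3.3 (filterByExpr, TMM, glmQLFTest, no covariate), with Benjamini-Hochberg adjustment over 27514 features and a limit of 0.05. Standard errors were taken from the size of the log2 fold change over the root of the F statistic. CPM is TMM-scaled. The planned analysis assumed whole counts. Members, gene lists and named genes (all members called at 0.05, the 5 with the highest control FPKM, the genes nearest the limit, and the 3 smallest p in each direction among called genes of each list and among the snoRNAs) were chosen with earlier results of these data known. Other genes named were chosen after their values were seen. Replicate numbers did not pair the samples (correlation of deviations −0.0072, 0.0035 and 0.027 for the 3 numbers). Libraries of a group differed beyond sampling noise in 49.0% to 66.5% of 15608 genes. Genes that overlap or share reads are uncertain, since how the counting treated them is not stated. The script was tested on simulated data. Precision was limited by 3 libraries per group. The alternatives were other scalings, filters and tests (DESeq2 1.42.0, limma 3.58.1 on log2(FPKM + 1) and log2(FPKM + 0.1), with and without a minimum FPKM of 0.5 in 3 libraries), the replicate block, and leaving out each library.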

Additional observations from a re-analysis of the deposited data

How the results depend on the processing

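The calls of SNHG3, SNHG14, SNHG15, SNHG17, SNORA73A, SNORA73B and SCARNA16 held in all 15 alternatives, that of SNHG26 in the 13 that tested it, and that of SNHG16 in 14. The 3 FPKM fits, log2(FPKM + 1), log2(FPKM + 0.1) and log2(FPKM + 1) without the filter, each called 3 hosts higher and called 7, 6 and 5 hosts lower, and put 0, 2 and 0 higher past the study's threshold. Their medians over the hosts were −0.035, −0.049 and 0.0077, they called 9, 7 and 6 snoRNAs lower, the fit without the filter called 8 snoRNAs higher, and they called 25, 22 and 25 genes of the lists higher. Library size alone called 6 hosts lower with 1 past the threshold, a median of −0.035, 3 snoRNAs higher and 27 list genes higher. SNHG29 was −0.035 with library size alone and −0.035, −0.036 and −0.035 in the FPKM fits. The snoRNAs called lower were 1 without the filter and 1 with at least 10 counts in every library. The cause of these changes was not tested. Calls over all features are given only for the main fit and for library size alone. The counts from the other alternatives therefore have no background beside them.

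The replicate block, which shares only a number between samples, called 7 hosts (DANCR lost, SNHG4 gained), with a median of 0.17 and 0 snoRNAs lower by edgeR. Leaving out 1 library at a time gave 4 to 6 hosts higher, 2 to 4 lower, 3 to 6 past the threshold higher and 0 to 1 lower, medians of 0.026 to 0.17, 4 to 5 snoRNAs higher and 1 to 3 lower, and 26 to 45 list genes higher and 6 to 9 lower. Without control_1 the hosts called lower were 4, with 1 past the threshold, and the median was lowest. Without control_3 the median was highest, 26 list genes were higher and 6 lower, and without Sev_1 also 6 were lower. The snoRNAs called lower were 1 without control_1, control_2, control_3 or Sev_1. The 82 snoRNAs with at most 1 count in every library were not tested.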
